A study of Mus musculus with 23 samples.

Results

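Transcripts of 10 genes of the NRF2 antioxidant response were described in the hippocampus of mice given alcohol with or without urolithin A. They were chosen by symbol (Nfe2l2, Keap1, Hmox1, Nqo1, Slc7a11, Gclc, Gclm, Gsr, Txnrd1 and Srxn1), and 10 of 10 were found among the 19733 genes of the expression table. RNA was sequenced from the hippocampi of 23 male wild-type C57BL/6J mice, acquired at 6 weeks of age. The Ctrl group (9 mice) was fed a control liquid diet, and the EtOH group (7 mice) an ethanol liquid diet. The EtOH-UA group (7 mice) had the ethanol diet with urolithin A (UA), a compound that gut bacteria make from ellagitannins, by daily gavage at 200 mg/kg/day. The other groups were gavaged daily with the carboxymethylcellulose vehicle, so that no mouse received UA without ethanol. Treatment lasted 16 weeks, and 1 week of behavioral tests came before the tissue was taken. EtOH against Ctrl mice asks what the ethanol diet changed, and EtOH-UA against EtOH mice asks what UA changed under it.

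NRF2, the product of Nfe2l2, is a transcription factor that binds antioxidant response elements together with small MAF proteins. In unstressed cells KEAP1 holds it for ubiquitination by a CUL3 ligase, and oxidants or electrophiles that modify KEAP1 cysteines let NRF2 accumulate. This control acts on the protein, so the Nfe2l2 transcript is not itself a measure of NRF2 activity, which is usually read from its target transcripts. In the brain these targets are known best from astrocytes, which supply neurons with glutathione precursors.

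Values are FPKM, in which fragments are divided by transcript length and by library size, so levels can be compared between genes. Every marker of hippocampal neurons (8 of 8 genes) was detected in each library. Markers of the choroid plexus, an epithelium that borders the hippocampus, split the libraries: the sum of 6 markers (Ttr, the most abundant, with Kl, Folr1, Aqp1, Kcnj13 and Clic6) was 7.84 to 79.8 FPKM in 9 libraries (5 Ctrl, 1 EtOH and 3 EtOH-UA) and 486 to 7813 FPKM in 14 (4 Ctrl, 6 EtOH and 4 EtOH-UA). Its lowest, median and highest values were 7.84, 60.8 and 2973 FPKM in Ctrl mice, 69.4, 1278 and 5752 FPKM in EtOH mice, and 15.95, 1858 and 7813 FPKM in EtOH-UA mice. Summed FPKM over all genes also left a gap, with 17 libraries up to 346742 and 6 libraries (3 Ctrl, 1 EtOH and 2 EtOH-UA) from 358381 to 404609. In whole tissue, fewer cells of a type and less RNA per cell cannot be told apart.

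Sequence at the start of these genes was examined for the antioxidant response element, because binding to that element is how NRF2 is known to raise its targets. Elements outside the windows searched would not be seen. RefSeq windows (GRCm38.p6) from 250 bases before to 50 bases after a transcription start were at hand for 7 of the 10 genes, in 9 windows, 3 of them at starts of Txnrd1. The core TGACNNNGC, searched on both strands, matched in 4 of the 9 windows, belonging to Nfe2l2, Srxn1, Gclm and Txnrd1, against 4071 of all 32851 windows (12.4%). A different form of the same length, TGANTCAGC, was searched after the windows had been seen. It matched in 1 of the 9, at Srxn1, against 390 of all windows (1.19%). A match to this form need not match the core. Both forms match at a single position in 149 windows. One stretch of 70 bases before the start is printed for each gene with a match, 5′ to 3′ on the strand of the gene, with the match in capitals. The Nfe2l2 stretch (chr2:75704844-75704913, minus strand) holds the core as written, with its first base at position -240 from the start. The Srxn1 stretch (chr2:152105449-152105518, plus strand) holds TGANTCAGC from position -45, where the letters do not match the core. The core match of Srxn1, at position 29 after the start, is not shown. The Gclm stretch (chr3:122245393-122245462, plus strand) and the Txnrd1 stretch (chr10:82859084-82859153, plus strand) hold the core on the opposite strand, from positions -134 and -92. Positions count from the transcription start of the window. For Gclm and Txnrd1 that start lies inside the gene, past the first base of the gene coordinates given below.
Nfe2l2: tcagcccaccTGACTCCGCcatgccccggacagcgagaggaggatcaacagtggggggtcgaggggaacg
Srxn1: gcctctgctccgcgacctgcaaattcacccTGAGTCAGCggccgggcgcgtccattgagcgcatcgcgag
Gclm: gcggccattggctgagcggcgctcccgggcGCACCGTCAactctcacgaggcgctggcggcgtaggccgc
Txnrd1: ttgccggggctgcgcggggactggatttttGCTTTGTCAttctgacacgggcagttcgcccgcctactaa
The windows of Keap1, Nqo1 and Slc7a11 held neither form, which says only that these letters are not within those bases. A match is a run of letters, and binding was not measured.

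All 10 genes were expressed in every mouse, with medians over the 23 mice from 2.38 FPKM for Nqo1 to 25.52 FPKM for Srxn1. From the highest median to the lowest, the order was Srxn1, Gclc, Keap1, Txnrd1, Gclm, Gsr, Nfe2l2, Slc7a11, Hmox1 and Nqo1. Srxn1 was above Gclc in 23 of 23 mice, and the neighbours Txnrd1 and Gclm, Gsr and Nfe2l2, and Slc7a11 and Hmox1 also kept their order in all 23 without overlap of their ranges. Gclc was above Keap1 in 12 of 23 mice and Hmox1 above Nqo1 in 11 of 23, so these neighbours were not ordered beyond their spread. The remaining neighbours kept their order in 18 to 22 of 23 mice, with ranges that overlapped. The spread between mice was smallest for Gclc, with a coefficient of variation of 4.48% over the 23 mice, and largest for Nqo1, at 37.3%.

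**Figure D1:**
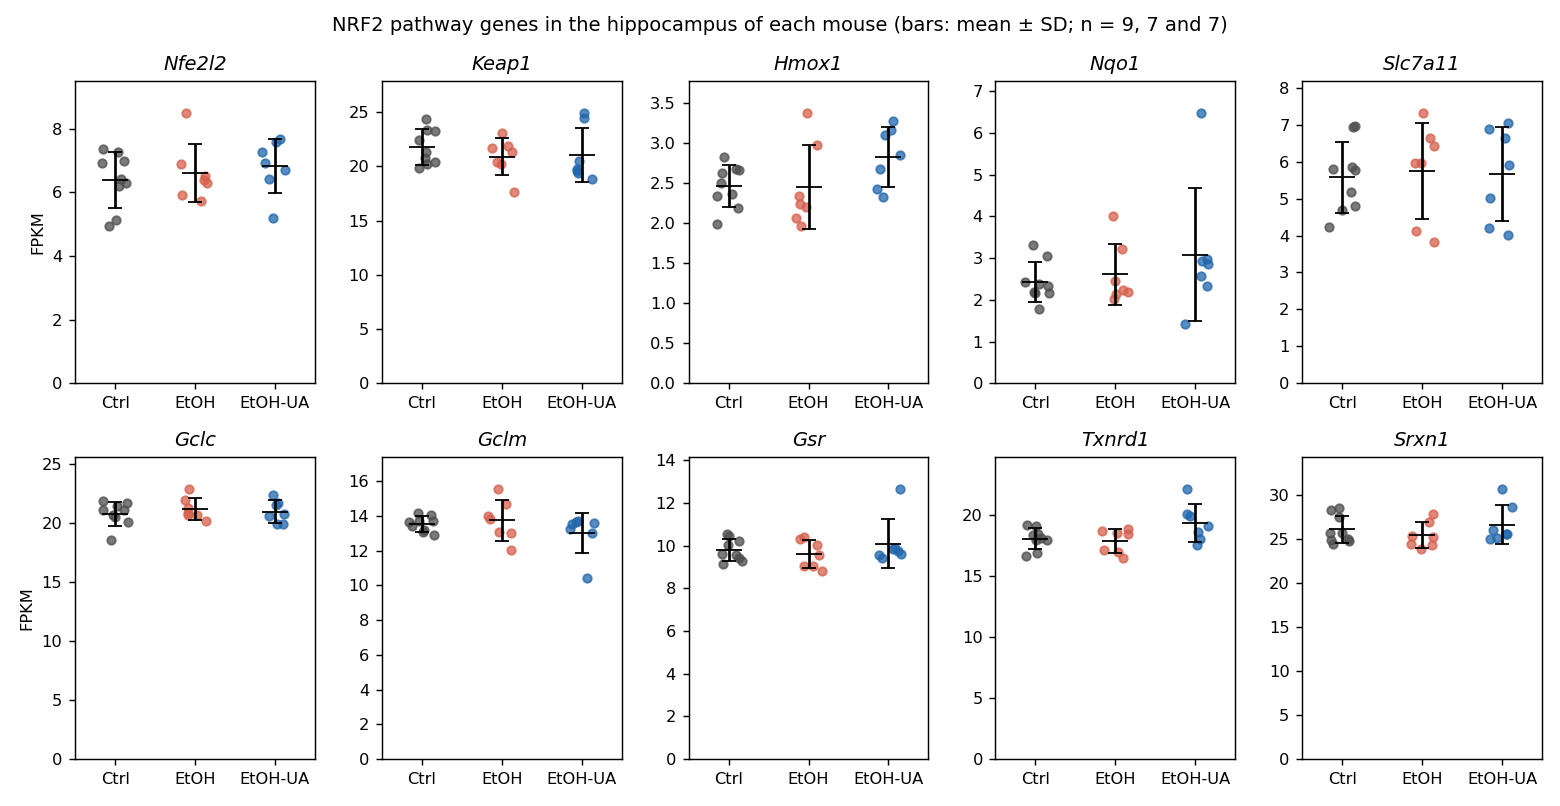
FPKM of the 10 genes in each mouse (points) with the group mean and SD (bars), for 9 Ctrl, 7 EtOH and 7 EtOH-UA mice, each panel with its own axis. The groups overlap for every gene, and single EtOH-UA mice stand away from their group for Nqo1 (6.47 FPKM), Gsr (12.65 FPKM) and Gclm (10.41 FPKM).

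No gene of the 10 passed an adjusted p under 0.05 in any comparison (limma on log2(FPKM + 0.1), Benjamini-Hochberg over 15985 genes), and no gene had groups that did not overlap. The background was the same, since 0% of all genes tested passed in each of the 3 comparisons. At an unadjusted limma p under 0.05, 0 of the 10 genes passed for EtOH against Ctrl mice (background 3.05%). The count was also 0 for EtOH-UA against Ctrl mice (background 3.08%). For EtOH-UA against EtOH mice 1 passed (Txnrd1, higher, background 3.27%). A count of 1 in 10 genes is not set apart from that share. Of the 10, 5 were higher and 5 lower in EtOH than in Ctrl mice, with a median log2 fold change of 0.00061. In EtOH-UA mice 7 were higher and 3 lower than in EtOH mice (median log2 fold change 0.056), and 8 higher and 2 lower than in Ctrl mice (median 0.034), where all genes had medians of -0.0030, 0.0033 and 0.0024 in the same order. The last of these comparisons shares mice with both others. Each library was taken as 1 mouse, and the p-values measure the spread between these libraries.

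Nfe2l2 (gene 18024, chromosome 2, 75675513 to 75704663, GRCm38) encodes NRF2 itself. Its lowest, median and highest values were 4.94, 6.43 and 7.36 FPKM in Ctrl mice, 5.73, 6.40 and 8.48 FPKM in EtOH mice, and 5.19, 6.91 and 7.68 FPKM in EtOH-UA mice. The 3 ranges overlapped between 5.73 and 7.36 FPKM, and the highest value of the study was in an EtOH mouse. The log2 fold change was 0.048 for EtOH against Ctrl mice (95% interval -0.15 to 0.24) and 0.046 for EtOH-UA against EtOH mice (-0.16 to 0.25), with adjusted p = 0.999 and 0.941 in limma. The first of these was -0.013 without the EtOH mouse at 8.48 FPKM.

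Keap1 (gene 50868, chromosome 9, 21229730 to 21239332) encodes the adaptor that presents NRF2 for degradation. It measured 19.81, 21.32 and 24.33 FPKM at the lowest, median and highest Ctrl mouse, 17.61, 21.29 and 23.03 FPKM in EtOH mice, and 18.82, 19.71 and 24.88 FPKM in EtOH-UA mice. The EtOH-UA group held both the highest value of all and the lowest of the 3 medians. Its log2 fold change was -0.062 for EtOH against Ctrl mice (-0.20 to 0.073) and 0.0074 for EtOH-UA against EtOH mice (-0.14 to 0.15), and the second of these turned negative under several other settings.

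Hmox1 (gene 15368, chromosome 8, 75093618 to 75100593), the inducible heme oxygenase that splits heme into biliverdin, iron and carbon monoxide, was among the least abundant of the 10. Its lowest, median and highest values were 1.99, 2.5 and 2.83 FPKM in Ctrl mice, 1.96, 2.24 and 3.37 FPKM in EtOH mice, and 2.32, 2.85 and 3.28 FPKM in EtOH-UA mice. Every EtOH-UA mouse (7 of 7) was above the EtOH median, although 1 EtOH mouse had the highest value of all. The means were 2.46 ± 0.267 FPKM (SD, n = 9), 2.45 ± 0.523 FPKM (n = 7) and 2.83 ± 0.373 FPKM (n = 7). For EtOH-UA against EtOH mice the log2 fold change was 0.21 (SE 0.11, 95% interval -0.015 to 0.44), a 1.16-fold difference, with adjusted p = 0.900 in limma and p = 0.115 in a two-sided exact permutation test over 3432 splits. Against Ctrl mice it was 0.19 (SE 0.10), with unadjusted p = 0.0822 and adjusted p = 0.999 in limma. The exact permutation p there was 0.0448, not adjusted for the 30 comparisons of the 10 genes. Hmox1 did not differ between EtOH and Ctrl mice beyond their spread (log2 fold change -0.024, 95% interval -0.24 to 0.19).

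Nqo1 (gene 18104, chromosome 8, 107388225 to 107403205), a quinone reductase and a classical NRF2 target, varied most between mice. It measured 1.78, 2.34 and 3.32 FPKM at the lowest, median and highest Ctrl mouse, 2.01, 2.23 and 4.02 FPKM in EtOH mice, and 1.43, 2.85 and 6.47 FPKM in EtOH-UA mice. The lowest and the highest of the 23 values were both in the EtOH-UA group. The log2 fold change was 0.083 for EtOH against Ctrl mice (95% interval -0.33 to 0.50) and 0.15 for EtOH-UA against EtOH mice (-0.29 to 0.59, exact permutation p = 0.611). The direction of each rested on 1 mouse, since the first was -0.025 without the EtOH mouse at 4.02 FPKM and the second -0.045 without the EtOH-UA mouse at 6.47 FPKM. These intervals span folds of 0.795 to 1.41 and of 0.818 to 1.505, so a change of moderate size in either direction was not detectable for this gene.

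Slc7a11, Gclc, Gclm and Gsr serve glutathione. Slc7a11 (gene 26570, chromosome 3, 50364936 to 50499087) encodes the cystine carrier of the cystine/glutamate exchanger, which brings in the precursor of cysteine. Its lowest, median and highest values were 4.24, 5.77 and 6.98 FPKM in Ctrl mice, 3.83, 5.97 and 7.31 FPKM in EtOH mice, and 4.02, 5.91 and 7.05 FPKM in EtOH-UA mice. The 3 medians were close, and the log2 fold change was 0.027 for EtOH against Ctrl mice (95% interval -0.27 to 0.32) and -0.017 for EtOH-UA against EtOH mice (-0.33 to 0.30).

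Gclc (gene 14629, chromosome 9, 77754535 to 77794489) and Gclm (gene 14630, chromosome 3, 122245487 to 122267215) encode the catalytic and the modifier subunit of glutamate-cysteine ligase, the first enzyme of glutathione synthesis. Gclc measured 18.54, 21.09 and 21.83 FPKM at the lowest, median and highest Ctrl mouse, 20.12, 20.85 and 22.86 FPKM in EtOH mice, and 19.89, 20.77 and 22.37 FPKM in EtOH-UA mice. Of all 10 genes it had the narrowest interval for EtOH against Ctrl mice, with a log2 fold change of 0.030 (-0.052 to 0.11), equal to folds of 0.965 to 1.08. Gclm measured 12.88, 13.68 and 14.19 FPKM in Ctrl mice, 12.02, 13.84 and 15.55 FPKM in EtOH mice, and 10.41, 13.53 and 13.69 FPKM in EtOH-UA mice. None of the 7 EtOH-UA mice was above the EtOH median for Gclm, but the EtOH range held nearly all of theirs, and the log2 fold change was -0.079 (95% interval -0.20 to 0.043, exact permutation p = 0.311), or -0.026 without the single mouse at 10.41 FPKM. No difference of either subunit passed a test.

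Gsr (gene 14782, chromosome 8, 33653238 to 33698162), glutathione reductase, returns oxidized glutathione to its reduced form. It measured 9.13, 9.59 and 10.54 FPKM at the lowest, median and highest Ctrl mouse, 8.79, 9.56 and 10.42 FPKM in EtOH mice, and 9.40, 9.73 and 12.65 FPKM in EtOH-UA mice. A single EtOH-UA mouse lay above the whole range of the others. The log2 fold change was -0.030 for EtOH against Ctrl mice (-0.15 to 0.088) and 0.068 for EtOH-UA against EtOH mice (-0.058 to 0.19), of which 0.013 remained without the mouse at 12.65 FPKM.

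The thioredoxin branch held the gene with an unadjusted limma p under 0.05. Txnrd1 (gene 50493, chromosome 10, 82833951 to 82897724) encodes the cytosolic thioredoxin reductase, a selenoenzyme that keeps thioredoxin reduced. Its lowest, median and highest values were 16.61, 18.13 and 19.18 FPKM in Ctrl mice, 16.46, 18.45 and 18.85 FPKM in EtOH mice, and 17.56, 19.08 and 22.11 FPKM in EtOH-UA mice. Of the EtOH-UA mice, 5 of 7 were above the EtOH median, and the ranges overlapped between 17.56 and 18.85 FPKM. The means were 18.1 ± 0.871 FPKM (SD, n = 9), 17.9 ± 0.977 FPKM (n = 7) and 19.3 ± 1.53 FPKM (n = 7). For EtOH-UA against EtOH mice the log2 fold change was 0.11 (SE 0.050, 95% interval 0.0084 to 0.22), or 1.08-fold, with unadjusted p = 0.0353 and adjusted p = 0.900 in limma, and an exact permutation p = 0.0478. By the limma p-value it stood at place 338 of 15985 genes. Other settings put the unadjusted limma p on both sides of 0.05. It was 0.0306 with no filter on low values and 0.0465 with quantile normalization. It was 0.0584 with upper-quartile scaling, 0.0640 with only the 2 groups fitted and 0.0930 with array quality weights. Against Ctrl mice the log2 fold change was 0.096 (SE 0.047, unadjusted p = 0.0528 and adjusted p = 0.999 in limma, exact permutation p = 0.0486).

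Srxn1 (gene 76650, chromosome 2, 152105524 to 152111376) encodes sulfiredoxin, which repairs overoxidized peroxiredoxins, and was the most abundant of the 10. It measured 24.43, 25.65 and 28.48 FPKM at the lowest, median and highest Ctrl mouse, 23.91, 25.22 and 27.86 FPKM in EtOH mice, and 25.01, 25.59 and 30.68 FPKM in EtOH-UA mice. The 3 medians lay within the spread of any single group. The log2 fold change was -0.037 for EtOH against Ctrl mice (-0.14 to 0.065) and 0.066 for EtOH-UA against EtOH mice (-0.042 to 0.17), or 0.032 without the EtOH-UA mouse at 30.68 FPKM.

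**Figure D2:**
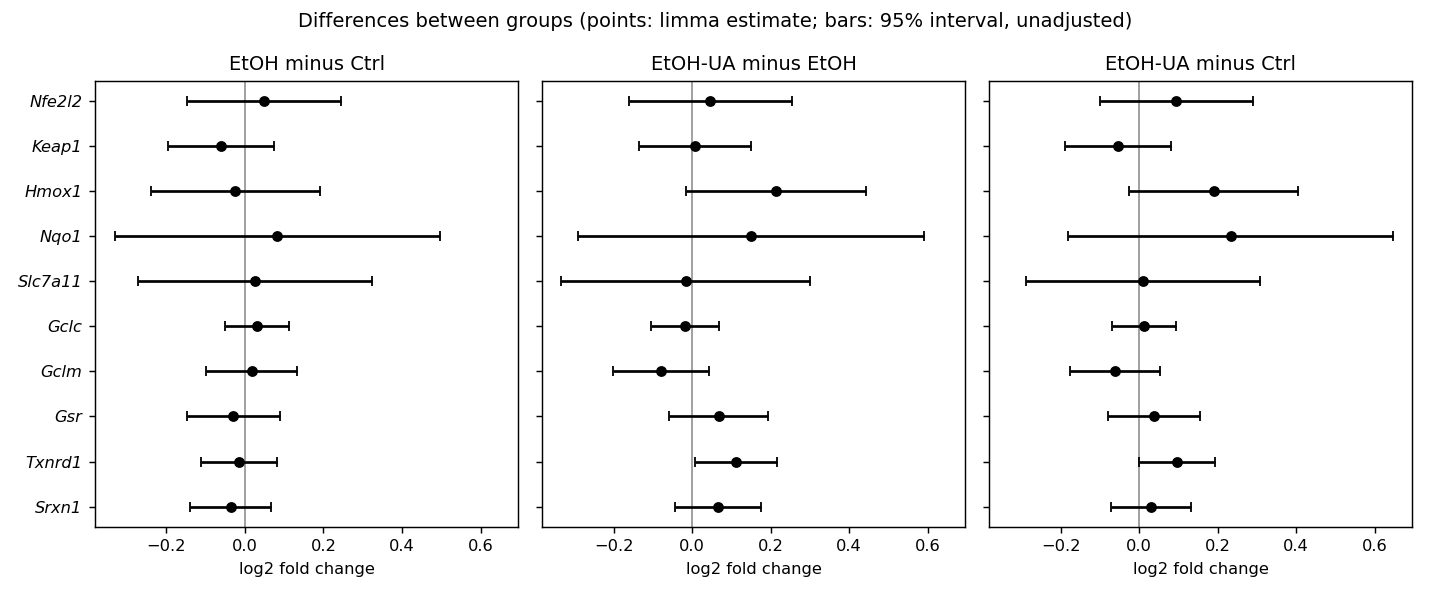
Log2 fold change of each gene on the log2(FPKM + 0.1) scale (points) with its unadjusted 95% interval (bars) for EtOH minus Ctrl, EtOH-UA minus EtOH and EtOH-UA minus Ctrl mice. The interval leaves 0 out only for Txnrd1 in EtOH-UA minus EtOH (0.0084 to 0.22), and the intervals are widest for Nqo1.

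The differences for Txnrd1 and Hmox1 were smaller without 2 EtOH-UA mice, which had the largest summed FPKM of all 23. The library with summed FPKM of 404609, which also had the highest choroid plexus sum, 7813 FPKM, was the highest of 23 for Keap1 (24.88 FPKM), Nqo1 (6.47 FPKM), Gsr (12.65 FPKM) and Txnrd1 (22.11 FPKM) and the lowest for Gclm (10.41 FPKM). The library with 379518, with a choroid plexus sum of 15.95 FPKM, was the highest for Srxn1 (30.68 FPKM), second for Keap1, Hmox1 and Txnrd1, and the lowest for Nqo1 (1.43 FPKM). Without these 2 mice, a choice made after seeing the data, the log2 fold change for EtOH-UA against EtOH mice was 0.061 for Txnrd1 (unadjusted p = 0.208 in limma) and 0.14 for Hmox1 (unadjusted p = 0.260). The value for Srxn1 in the same comparison was 0.0033 without them. With summed FPKM as a covariate the values for Txnrd1 and Hmox1 were 0.077 (unadjusted p = 0.0793) and 0.14 (unadjusted p = 0.175).

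Several of the 10 genes took different levels in the 6 libraries of high summed FPKM than in the other 17, in a split that crosses the groups. The split is made on FPKM summed over all genes, so some higher values in the 6 are built in. The share of all genes that differ in this way was not counted. Slc7a11 was at 3.83 to 4.80 FPKM (median 4.22) in the 6 and at 4.12 to 7.31 FPKM (median 5.97) in the 17. Keap1 was at 22.41 to 24.88 FPKM (median 23.86) against 17.61 to 23.30 FPKM (median 20.40). The medians of Srxn1 (28.385 against 25.08 FPKM), Hmox1 (2.905 against 2.34 FPKM) and Gsr (10.43 against 9.56 FPKM) were also higher in the 6, whereas those of Txnrd1 (18.465 against 18.32 FPKM) were close. Within the 17 libraries no relation of the 10 genes with summed FPKM passed the adjustment, the largest being that of Slc7a11 (r = -0.446, permutation p = 0.0740, adjusted p = 0.288 over 40 relations). Within the 6, Txnrd1 rose with it (r = 0.993, exact permutation p = 0.00278, adjusted p = 0.0278), but its Spearman's rho of 0.943 had an adjusted p of 0.167 (exact permutation) and r was 0.799 without the 2 libraries farthest from the median. Groups were pooled in these relations. The 2 EtOH-UA libraries had the largest sums of the 6, so group and summed FPKM cannot be told apart there.

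Nqo1 and Nfe2l2 followed the choroid plexus markers, in relations that pool the groups. In the 14 libraries with much choroid plexus signal, r between Nqo1 and the log2 marker sum was 0.860 (permutation p = 3e-05, adjusted p = 0.0012 over 40 relations), rho was 0.846 (adjusted p = 0.010) and r was 0.830 without the 2 farthest libraries. For Nfe2l2 r was 0.815 (permutation p = 0.00043, adjusted p = 0.0086), rho 0.823 (adjusted p = 0.010) and r without the 2 farthest 0.818. In the 9 libraries with little signal the relations were weak, with r = 0.084 for Nqo1 (exact permutation p = 0.836) and 0.387 for Nfe2l2 (exact permutation p = 0.287). There Slc7a11 rose with the markers (r = 0.931, exact permutation p = 0.00107, adjusted p = 0.0143), although its rho of 0.850 had an adjusted p of 0.081 (exact permutation). The 9 include libraries of high summed FPKM, such as that with 379518 (Slc7a11 at 4.21 FPKM). Slc7a11 lay low in that class, and the part of summed FPKM in this relation was not tested. In the 14 libraries its r had the opposite sign (-0.396, permutation p = 0.163, adjusted p = 0.344). Nqo1 was at 1.43 to 2.57 FPKM (median 2.16) in the 9 libraries and at 2.13 to 6.47 FPKM (median 2.895) in the 14, and the 14 include 6 of the 7 EtOH mice but 4 of the 9 Ctrl mice.

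**Figure D3:**
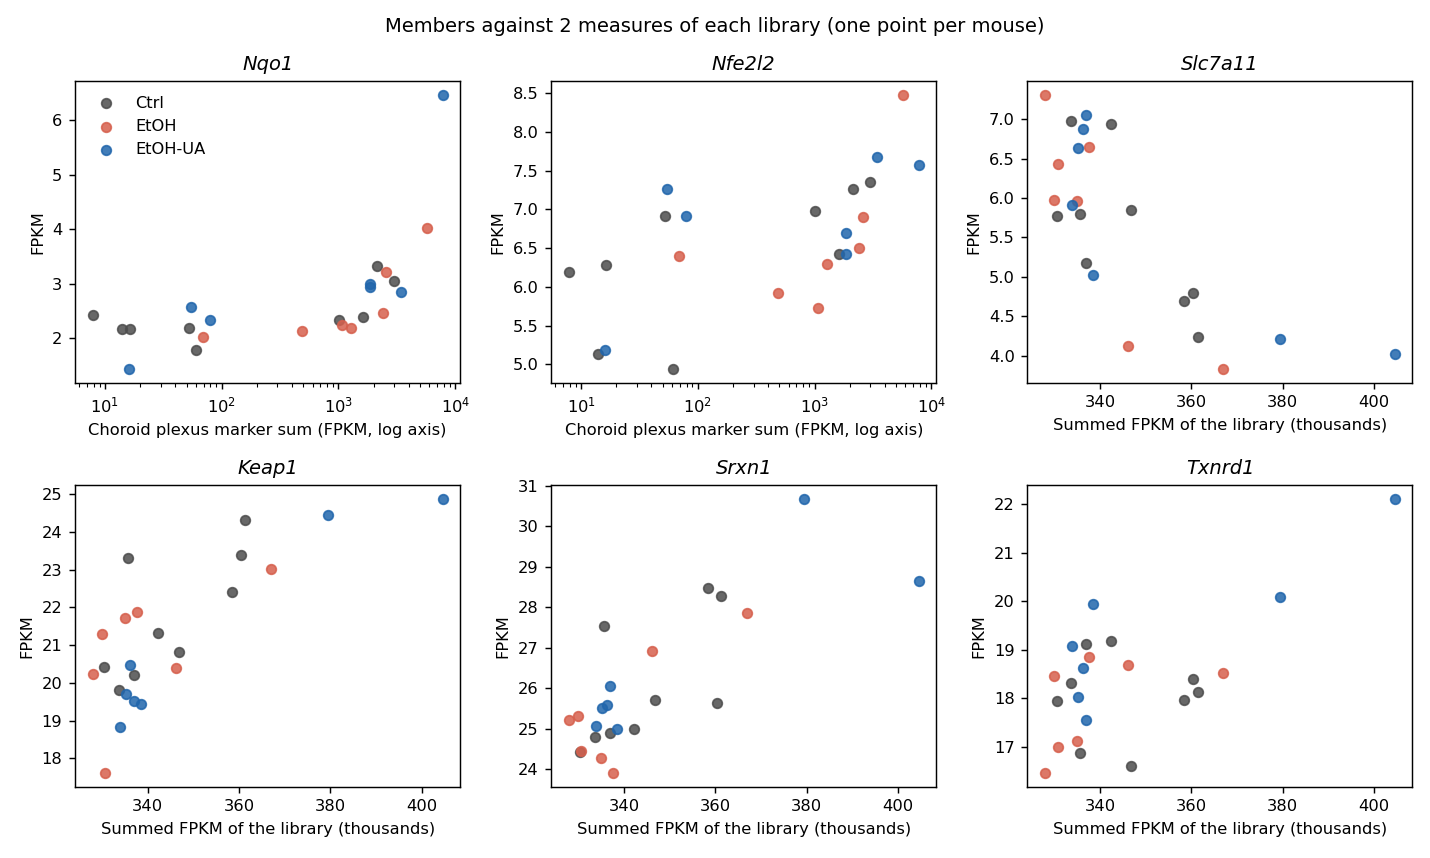
Levels of members in each library against the library measures, with points coloured by group: the summed FPKM, which leaves a gap between 17 and 6 libraries, and the choroid plexus marker sum, which leaves a gap between 9 and 14. Slc7a11 lies low (3.83 to 4.80 FPKM) in the 6 libraries of high summed FPKM, and Nqo1 climbs with the choroid plexus sum within the 14 libraries.

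Comparisons were also made within the libraries of one choroid plexus class, with the classes cut at the gap seen in these data. The differences of Txnrd1 and Hmox1 kept their direction there. They use the same mice again, so they are not separate support, and the part of the choroid plexus was not tested. Among the 14 libraries, Txnrd1 was at 18.02 to 22.11 FPKM in 4 EtOH-UA mice and at 16.46 to 18.69 FPKM in 6 EtOH mice, a difference of 0.16 on the log2 scale (exact permutation p = 0.0476, unadjusted, where the smallest possible is 0.00476). Of the 40 such comparisons of the 10 genes within a class, this was the 1 with a p under 0.05. A count of 1 in 40 is no more than chance gives at that threshold. The Txnrd1 value of 22.11 FPKM came from the library with the highest choroid plexus sum of all (7813 FPKM). Between the same EtOH-UA and EtOH mice the differences were 0.25 for Hmox1 (exact permutation p = 0.1) and 0.43 for Nqo1 (exact permutation p = 0.190). Among the 9 libraries with little signal there was 1 EtOH mouse, so that only EtOH-UA and Ctrl mice could be compared: Hmox1 differed by 0.22 (3 against 5 mice, exact permutation p = 0.0714, smallest possible 0.0179) and Nqo1 by -0.054 (exact permutation p = 0.839). With the log2 choroid plexus sum as a covariate, added after seeing the data, the Nqo1 estimate for EtOH against Ctrl mice was -0.18 (unadjusted p = 0.259 in limma), and that of Txnrd1 was 0.12 for EtOH-UA against EtOH mice (unadjusted p = 0.0292 in limma).

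Depth limits the low genes. The table holds no counts, but the steps between its lowest values gave about 16.2 fragments per kilobase at 1 FPKM, the median of 14 genes with a single transcript. The 14 values ran from 13.2 to 33.1. Genes whose lowest value was under 0.1 FPKM were left out, which can lower the estimate, and full transcript lengths were used, so it is rough. By that estimate and the length of the longest coding transcript, a mouse gave 65.4 fragments for Hmox1 and 67.5 for Nqo1, where counting alone would spread values by 12.4% and 12.2%. The measured coefficient of variation within groups was 15.6% for Hmox1, near its counting error by this rough estimate, and 39.1% for Nqo1, well above it. For Keap1, Gclm, Srxn1, Gclc and Txnrd1 the estimate was 1080 to 1247 fragments per mouse, and would be lower if shorter transcripts made up the signal (for Gclm 292 against 5589 bases, for Txnrd1 581 against 3622).

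The genes whose pattern was most like that of each member were ranked by Pearson's r of the deviations from group means over the 23 mice, among the 12903 genes whose mean reached 1 FPKM. These values are descriptions, since all genes of a mouse share a library and the splits above. Nfe2l2 was most like Tbcel (r = 0.910), Stard13 (0.902) and Sorbs3 (0.901), and Nqo1 most like Slc29a4 (0.910), Tcn2 (0.884) and Slc4a2 (0.879). Keap1 was most like Arl2bp (0.933), Ccm2 (0.931) and the astrocyte aldolase Aldoc (0.930), and Srxn1 most like the glycolytic genes Pfkm (0.910) and Pgam1 (0.883), with Uqcc3 (0.893) between them. The nearest genes were Iah1 (0.848), Wdyhv1 (0.787) and Psme3ip1 (0.754) for Hmox1, and Kcng2 (0.818), Dguok (0.811) and Islr2 (0.803) for Txnrd1. Among the glutathione genes, Gsr was nearest to Sdf4 (0.880), Mcee (0.844) and Ankra2 (0.838), and Gclm to Cntnap2 (0.819), Atrnl1 (0.813) and Mtmr4 (0.811). The 3 nearest genes included Lca5 (0.869) and Dclre1c (0.867) for Slc7a11, and Ikzf5 (0.776) and St8sia3 (0.767) for Gclc. No member had another member among its 3 nearest genes.

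Around the 10 genes, 73 further genes of the NRF2 network were measured, and 0 of 73 passed an adjusted p under 0.05 in any comparison. At an unadjusted p under 0.05, 1 was higher and 1 lower in EtOH than in Ctrl mice, where 1.95% and 1.10% of all genes were. In EtOH-UA mice 2 were higher and 2 lower than in EtOH mice (all genes 1.83% and 1.45%), and 2 higher and 2 lower than in Ctrl mice (all genes 1.56% and 1.52%). Regardless of any threshold, 49 of 73 had a lower estimate in EtOH than in Ctrl mice (median log2 fold change -0.033), and 54 of 73 a higher estimate in EtOH-UA than in EtOH mice (median 0.060). Both comparisons share the EtOH mice, and for all genes the shares with a higher estimate were 48.6% and 51.2%. Of 12 thioredoxin and peroxiredoxin genes, 11 had lower estimates in EtOH than in Ctrl mice (median -0.067) and 10 higher ones in EtOH-UA than in EtOH mice (median 0.095). Of 19 genes of glutathione synthesis and use these counts were 12 and 17 (medians -0.033 and 0.065), of 13 regulators and partners of NRF2 11 and 8 (medians -0.051 and 0.045), and of 8 heme and iron genes 6 and 7. In the remaining lists, of 15 xenobiotic enzymes and exporters, 10 had higher estimates in EtOH than in Ctrl mice (median 0.021) and 9 in EtOH-UA than in EtOH mice (median 0.032), and of 6 NADPH supply genes 2 had higher estimates in EtOH than in Ctrl mice (median -0.028) and 3 in EtOH-UA than in EtOH mice (median 0.011). The median of -0.033 for the 73 genes in EtOH against Ctrl mice was 0.00019 with summed FPKM as a covariate. The median of 0.060 for the 73 genes in EtOH-UA against EtOH mice became 0.0041 without the library of summed FPKM 404609 and -0.042 without both EtOH-UA libraries of high summed FPKM, and it was -0.023 with summed FPKM as a covariate and 0.0027 with array quality weights.

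**Figure D4:**
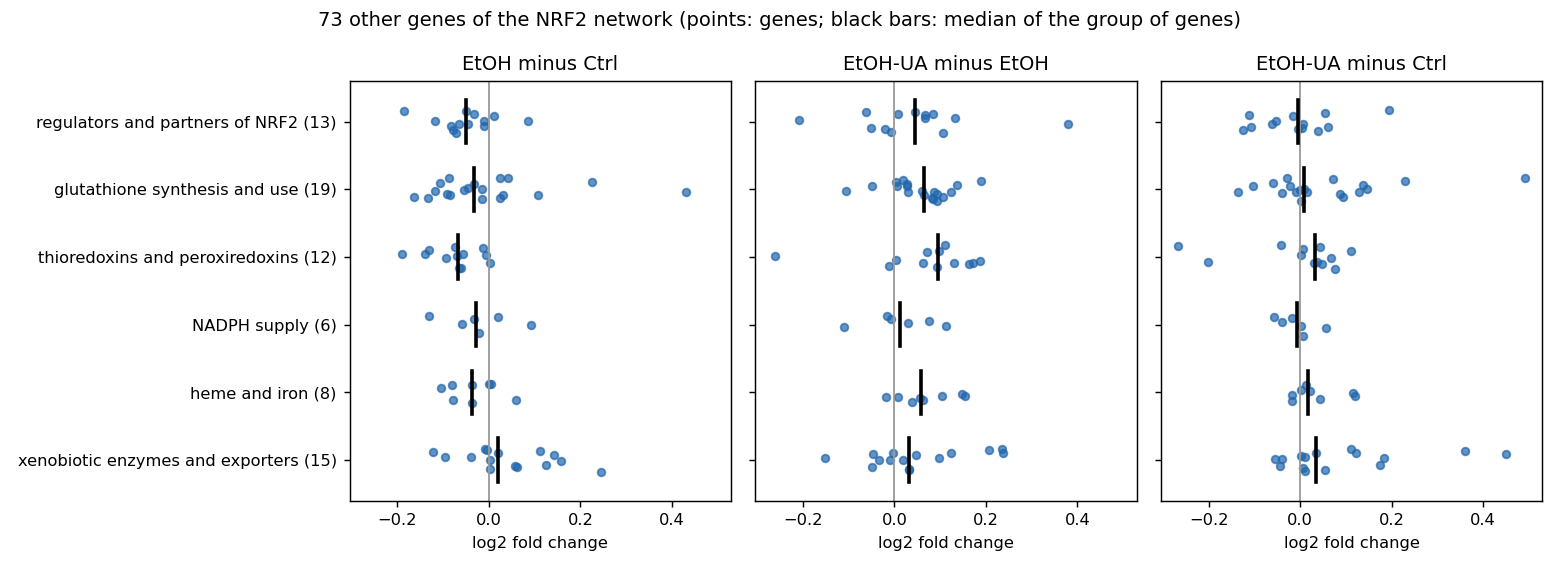
Log2 fold change of 73 further genes of the NRF2 network (points) in 6 groups of genes, with the median of each group (black bars), for the 3 comparisons. The thioredoxin and peroxiredoxin genes lie mostly below 0 in EtOH minus Ctrl (11 of 12) and mostly above 0 in EtOH-UA minus EtOH (10 of 12), and none of the 73 passed an adjusted p under 0.05.

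By the 3 smallest p-values in each comparison, the genes of this network were these. G6pdx, the first enzyme of the pentose phosphate pathway and a source of NADPH, was at 8.49 to 12.20 FPKM (median 9.29) in EtOH mice and 9.35 to 11.52 FPKM (median 10.60) in Ctrl mice (log2 fold change -0.13, unadjusted p = 0.0434 in limma). Mgst1, a membrane glutathione transferase, was at 6.16 to 10.12 FPKM in EtOH mice and 5.10 to 7.21 FPKM in Ctrl mice (0.23, unadjusted p = 0.0460). Mafk, a small MAF partner of NRF2, was at 3.71 to 4.39 FPKM against 4.07 to 4.99 FPKM (-0.12, unadjusted p = 0.0622). All of these ranges overlapped.

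Between EtOH-UA and EtOH mice, Prdx6, a peroxiredoxin that uses glutathione, was at 78.55 to 106.51 FPKM (median 83.12) against 70.04 to 91.68 FPKM (median 77.84), a log2 fold change of 0.19 (unadjusted p = 0.0195 in limma). Txnrd3, a thioredoxin reductase best known from testis, was at 1.21 to 1.80 FPKM against 1.23 to 2.06 FPKM (-0.26, unadjusted p = 0.0214), so that it and Txnrd1 had estimates of opposite sign. Abcc1, an exporter of glutathione conjugates, was at 3.69 to 5.03 FPKM against 4.73 to 5.11 FPKM (-0.15, unadjusted p = 0.0256). Against Ctrl mice the smallest p-values in EtOH-UA mice were those of Txnrd3 (-0.27, unadjusted p = 0.0135), the small MAF gene Mafg (-0.11, unadjusted p = 0.0374) and Mgst1 (0.23, unadjusted p = 0.0434). Their adjusted p-values were 0.900 or more in limma in each comparison.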

How the data were processed

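Hippocampal RNA of 23 mice was sequenced as paired 100-base reads. The authors cleaned the reads with SOAPnuke, mapped them to mm10 (GRCm38) with Bowtie2, estimated expression by RSEM, and deposited the FPKM with 2 decimals. The submitters' processing notes name Bowtie2 2.2.5, RSEM 1.2.8, HISAT2 2.1.0, StringTie and DESeq. The methods name poly(A)+ RNA and the labels total RNA. FPKM are not counts, so no count test was run. Columns were assigned to groups by name, and their mouse numbers match no label.

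Genes whose mean reached 0.1 FPKM (15985) were fitted as log2(FPKM + 0.1) with limma 3.58.1 in R 4.3.3 (3 groups, eBayes with trend), tested on simulated data, with Benjamini-Hochberg adjustment over all genes tested. The main fit applied no scaling between libraries beyond FPKM. Fold changes of log2(FPKM + 0.1) understate changes of low genes. Single genes were compared by exact permutation of the mice between groups, two-sided. Relations with library measures pooled the groups, and used 100000 permutations, or all pairings in sets of 6 and 9 libraries. Named genes were the 10 members, the 3 smallest p-values per comparison among 73 network genes, and the 3 nearest genes by r, of which 2 are not reported here. The members and lists were chosen with earlier results of these data known. Other pseudocounts, filters, scalings, weights and left-out mice were tried. Gene coordinates are those of RefSeq on GRCm38.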

Additional observations from a re-analysis of the deposited data

Results flagged for a closer look

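Of 30 sets of values (10 genes in 3 groups), 2 held a mouse far from the others by Dixon's ratio on the log2 scale, and chance flags about 1 set in 20. The lowest EtOH-UA mouse for Gclm was at 10.41 FPKM and the next at 13.01 FPKM (ratio 0.814). The highest EtOH-UA mouse for Gsr was at 12.65 FPKM and the next at 9.88 FPKM (ratio 0.832). On the FPKM scale, tried after seeing the data, 4 sets did: these, with ratios of 0.793 and 0.852, the highest EtOH-UA mouse for Nqo1 (6.47 against 2.99 FPKM, ratio 0.690) and the highest EtOH mouse for Nfe2l2 (8.48 against 6.90 FPKM, ratio 0.575). The Gclm, Gsr and Nqo1 values come from the library with the largest summed FPKM (404609) and the highest choroid plexus sum (7813 FPKM), and the part of either measure in them was not tested.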

How the results depend on the processing

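Over 1050 values of the 10 genes under other settings, 61 took the opposite direction and the lowest adjusted p was 0.574, and 16 of the 30 values kept their direction in every alternative run. The count of the 10 genes called, and of the 73 network genes called, was 0 in each. Among all genes tested, 1 was called for EtOH against Ctrl mice with array quality weights, and 0 to 1 were called in each comparison when single mice were left out. The median log2 fold change of the 73 network genes in EtOH-UA against EtOH mice moved to -0.042 without the 2 EtOH-UA mice of highest summed FPKM. No paired analysis was possible because the columns carry mouse numbers and no replicate numbers.

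The values that took the opposite direction are log2 fold changes, and the cause was not tested. For EtOH against Ctrl mice they were Txnrd1 at 0.0027 with upper-quartile scaling, Nqo1 at -0.022 with array weights, Nfe2l2 at -0.055, Hmox1 at 0.034, Nqo1 at -0.18 and Slc7a11 at -0.0015 with the choroid plexus covariate, and Hmox1 at 0.011, Slc7a11 at -0.055, Gclm at -0.0037 and Txnrd1 at 0.0017 with the summed FPKM covariate. For EtOH-UA against EtOH mice they were Keap1 at -0.013 with upper-quartile scaling, -0.016 with quantile normalization, -0.075 with array weights, -0.0095 with the choroid plexus covariate, -0.065 with the summed FPKM covariate and -0.087 without the 2 mice, Slc7a11 at 0.033 with array weights and at 0.15 with the summed FPKM covariate and without the 2 mice, and Gclc at 0.0057 and 0.0033 in those same settings. For EtOH-UA against Ctrl mice they were Gsr at -0.011 and Srxn1 at -0.018 with array weights, Slc7a11 at -0.0066 with the choroid plexus covariate, and Gsr at -0.019 and Srxn1 at -0.033 without the 2 mice.

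Leaving out single mice gave ranges that crossed 0. For EtOH against Ctrl mice they were -0.013 to 0.080 for Nfe2l2, -0.10 to 0.023 for Hmox1, -0.025 to 0.14 for Nqo1, -0.036 to 0.12 for Slc7a11, -0.013 to 0.048 for Gclm and -0.030 to 0.0038 for Txnrd1. For EtOH-UA against EtOH mice they were -0.034 to 0.033 for Keap1, -0.045 to 0.31 for Nqo1, -0.11 to 0.059 for Slc7a11 and -0.033 to 0.0014 for Gclc. For EtOH-UA against Ctrl mice they were -0.047 to 0.086 for Slc7a11, -0.0073 to 0.025 for Gclc, -0.017 to 0.054 for Gsr and -0.0050 to 0.045 for Srxn1. In EtOH-UA against EtOH mice, Txnrd1 stayed at 0.079 to 0.13 (unadjusted p = 0.0142 to 0.0994 in limma) and Hmox1 at 0.17 to 0.29 (unadjusted p = 0.00917 to 0.152).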
